A study of Mus musculus with 22 samples.

Results

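The genes described here control whether a T cell leaves a tissue, returns to lymphoid organs or adheres where it is. They are the transcription factors Klf2 and Klf3, the sphingosine-1-phosphate (S1P) receptors S1pr1 and S1pr4, the chemokine receptor Ccr7, the integrin chain Itgb2 and the hyaluronan receptor Cd44. These 7 genes were taken by symbol from a table of 24091 gene names. They were chosen with earlier results of these data known. All 7 passed the filter on low counts, which kept 12841 genes.

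T cells leave lymphoid organs and tissues by sensing S1P, a lipid that is abundant in blood and lymph and scarce inside tissues. KLF2 activates transcription of S1pr1 and falls after T cell activation. CCR7 guides T cells along the chemokines CCL19 and CCL21 into lymph nodes and the white pulp of the spleen, while the integrin LFA-1, of which Itgb2 encodes the beta chain, and CD44 serve adhesion and rise in antigen-experienced cells.

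RNA was sequenced from donor T cells after haematopoietic cell transplantation in mice, in 22 libraries. Recipients were wild-type BALB/c mice that had been lethally irradiated and transplanted with bone marrow plus spleen cells from C57BL/6 donors, also wild type, so every group had been irradiated and transplanted. They received control IgG or an anti-IL-2 monoclonal antibody until shortly before day 7, when T cells of donor type, CD4 or CD8, were isolated by flow sorting from spleen and colon (called gut here). The 8 groups were CD4 spleen, CD8 spleen, CD4 gut and CD8 gut cells, each under IgG or anti-IL-2. Batches 181201, 181212 and 190306 each gave 1 library per group (n = 3), except that batch 181201 gave none for gut IgG cells of either type (n = 2). Recipients lacking PD-L1, which the series title mentions, were not analysed here. The labels do not say whether libraries came from separate or pooled animals and give no ages, so p-values measure the spread between these libraries.

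Total counts ran from 14628806 to 24518362 per library. The sorted cell types matched their markers. Cd4 was at 1811 to 2610.4 CPM (read counts scaled to a common library size by TMM) in the CD4 libraries and at 0.323 to 7.17 in the CD8 libraries, and Cd8a was at 904 to 2119 CPM in the CD8 libraries and at 0.117 to 3.56 in the CD4 libraries. In batch 190306 the labelled treatment difference of several of the 7 genes ran against that of the other batches, so treatment comparisons are given below with and without that batch and speak of libraries labelled anti-IL-2.

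Coordinates are those of GENCODE M21 on mm10, the build the authors used. Klf2 is at chr8:72319033-72321656 on the plus strand, Klf3 at chr5:64803388-64832901 on the plus strand, S1pr1 at chr3:115710433-115715072 on the minus strand and S1pr4 at chr10:81497747-81500132 on the minus strand. Ccr7 is at chr11:99144196-99155077 on the minus strand, Itgb2 at chr10:77530252-77565708 on the plus strand and Cd44 at chr2:102811141-102901665 on the minus strand. Exons of Klf3 share 404 bases with Gm20033 on the opposite strand, and the strand setting of the counting is not given in the sources used here, so reads from that stretch could belong to either gene.

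The RefSeq promoter table (GRCm38.p6) held 4 of the 7 genes: Klf2, Klf3, S1pr4 and Cd44. The first 3 are shown because their transcripts fell together in the gut in both cell types, as described below. Each is the stretch of up to 250 bases before the gene's start, 5′ to 3′ on the gene's strand, cut where the RefSeq and GENCODE starts differ. The letters CACCC, the box that KLF factors bind, and the MEF2 consensus, through which MEF2 factors are known to act on Klf2, were searched on both strands, and matches are in capitals. No match of a motif overlapped one of the other.
Klf2 (chr8:72318812-72319032, plus strand): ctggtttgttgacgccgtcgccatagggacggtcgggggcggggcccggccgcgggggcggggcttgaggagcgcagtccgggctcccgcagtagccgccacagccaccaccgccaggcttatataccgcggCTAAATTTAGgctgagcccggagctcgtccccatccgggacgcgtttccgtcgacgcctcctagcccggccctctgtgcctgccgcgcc
Klf3 (chr5:64803271-64803387, plus strand): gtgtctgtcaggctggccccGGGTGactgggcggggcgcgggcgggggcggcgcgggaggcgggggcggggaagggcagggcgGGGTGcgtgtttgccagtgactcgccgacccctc
S1pr4 (chr10:81500138-81500387, minus strand): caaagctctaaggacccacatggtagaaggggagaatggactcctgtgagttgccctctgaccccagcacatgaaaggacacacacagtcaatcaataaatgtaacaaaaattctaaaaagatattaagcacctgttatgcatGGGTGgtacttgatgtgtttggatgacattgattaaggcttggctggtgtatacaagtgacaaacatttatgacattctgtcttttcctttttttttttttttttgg

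The Klf2 window held 1 MEF2 match, 89 bases before its end, and no CACCC. Of 32851 mouse promoters cut to the same length, 2.61% held a MEF2 match and 47.97% a CACCC. The Klf3 window held 2 CACCC boxes, both on the reverse strand (GGGTG as printed), which 28.4% of promoters of that length hold at least in a single copy. The S1pr4 window held 1 CACCC box on the reverse strand, and 52.0% of promoters of that length hold a CACCC. The Cd44 window, not shown, held no match of either. A match of letters is a description of the sequence and does not show binding.

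Per length of exon, the mean level over the 22 libraries fell in the order Itgb2 (341 CPM per kb), Klf2 (181), S1pr4 (127), S1pr1 (122), Cd44 (58.6), Klf3 (11.5) and Ccr7 (10.5). The length takes all annotated exons of a gene together, 11243 bases for Klf3 and 1978 for Ccr7, and can exceed that of the transcript expressed. Without it, the median was 129 CPM for Klf3 and 12.8 for Ccr7. The genes also differed in how much they varied. Itgb2 ranged 1.57-fold between its lowest and highest library and Cd44 2.15-fold. Klf2, Klf3, S1pr1 and S1pr4 ranged between 3.28-fold and 4.03-fold. Ccr7 ranged 114-fold, from 0.751 CPM (14 reads) to 85.9 CPM (1880 reads), so its lowest values carry the most counting error of the 7.

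**Figure D1:**
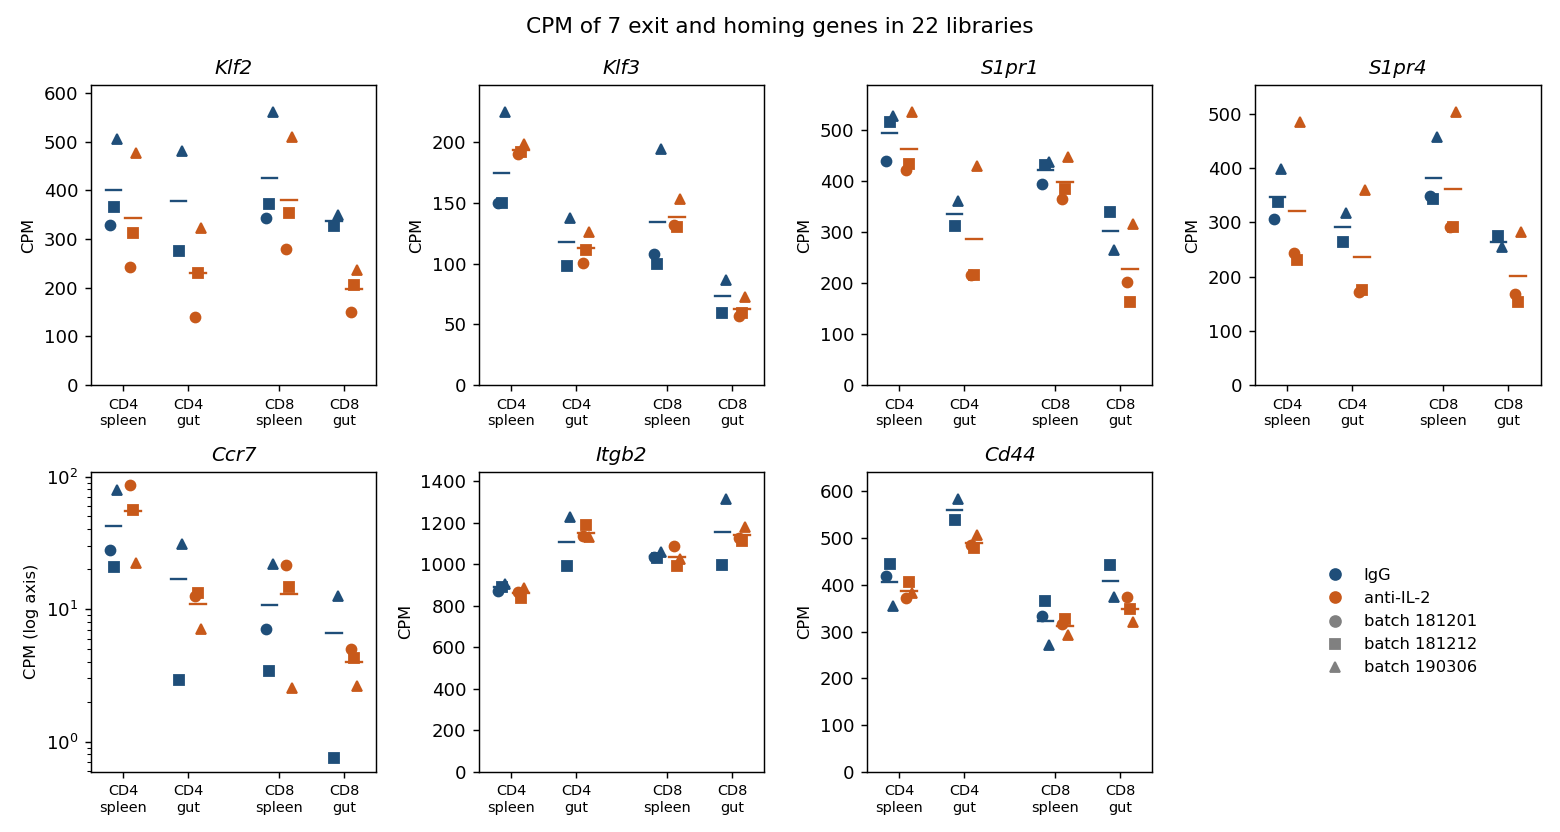
CPM of each of the 7 genes in the 22 libraries by cell type and tissue, with points coloured by treatment, shaped by batch and short lines at the group means; the axis of Ccr7 is logarithmic and the others start at 0. Klf3 was lower in each gut library than in each spleen library of the same cell type, and Ccr7 spans 0.751 to 85.9 CPM.

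The order of the 8 group means differed by gene. Klf2 was highest in CD8 spleen IgG cells, at 425 ± 118 CPM (SD, n = 3), and lowest in CD8 gut anti-IL-2 cells, at 197 ± 43.6 (n = 3). Its only gap between neighbouring groups lay between CD8 gut IgG (338 ± 16.3, n = 2) and CD4 gut anti-IL-2 cells (231 ± 92.2, n = 3). That gap was narrow, at 326 against 323 CPM between the nearest libraries. The gut IgG groups also lack batch 181201, whose gut libraries were the lowest for Klf2. Klf3 ran from 194 ± 4.14 in CD4 spleen anti-IL-2 cells to 63.0 ± 8.60 in CD8 gut anti-IL-2 cells, with a gap between the CD4 gut groups (113 ± 13.2 the lower) and the CD8 gut groups (73.1 ± 19.1 the higher). S1pr1 ran from 495 ± 47.8 in CD4 spleen IgG to 227 ± 80.4 in CD8 gut anti-IL-2 cells. By mean, a gap lay between the lowest spleen group (399 ± 44.1, CD8 anti-IL-2) and the highest gut group (336 ± 34.9, CD4 IgG). It was narrow, at 364 against 361 CPM between the nearest libraries. A CD4 gut anti-IL-2 library reached 430 CPM, so the gap did not separate all spleen from all gut libraries. S1pr4 ran from 383 ± 64.5 in CD8 spleen IgG to 201 ± 70.4 in CD8 gut anti-IL-2 cells and Ccr7 from 54.7 ± 31.8 in CD4 spleen anti-IL-2 to 3.98 ± 1.22 in CD8 gut anti-IL-2 cells, each with all neighbours overlapping. Itgb2 had its gap above the CD4 spleen groups (889.7 ± 17.3 the higher) and Cd44 had its gaps below CD4 gut IgG (560.5 ± 32.5, n = 2) and CD4 gut anti-IL-2 cells (490.0 ± 13.7, n = 3). For 5 of the 7 genes CD8 gut anti-IL-2 cells were the lowest group, by means that do not balance the batches.

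The first comparison asked how the genes differed between gut and spleen when each gut library was paired with the spleen library of the same cell type, batch and treatment (5 pairs per cell type). In CD4 cells 5 of the 7 genes were lower in the gut (Klf2, Klf3, S1pr1, S1pr4 and Ccr7) and 2 were higher (Itgb2 and Cd44), against 20.3% of all genes tested called lower and 24% called higher. In CD8 cells the same 5 were lower and Cd44 alone was higher, against 20.4% and 22.4%. The median log2 fold change of the 7 genes was -0.45 in CD4 and -0.73 in CD8 cells, beside 0.0097 and -0.0026 over all genes. Calls are adjusted p under 0.05 by edgeR's quasi-likelihood test with Benjamini-Hochberg adjustment over all genes. In these bulk samples a smaller share of cells carrying a transcript and less of it per cell cannot be told apart.

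Klf2, the factor that keeps exit and homing receptors on, was lower in the gut in 5 of 5 pairs in each cell type. In CD4 cells its CPM in batches 181201, 181212 and 190306 was 328, 366 and 505 in spleen IgG libraries and 242, 312 and 476 in spleen anti-IL-2 libraries. In the gut it was 139, 230.3 and 323 under anti-IL-2, and 276 and 481 under IgG in batches 181212 and 190306, and the values of each group are listed in this batch order for the other genes too. The ranges of the tissues overlapped, with batch 190306 highest in both, and the paired log2 fold change was -0.45 ± 0.12 (adjusted p = 0.0123, edgeR). In CD8 cells the spleen held 343, 372 and 560.3 CPM under IgG and 279, 353 and 509 under anti-IL-2, and the gut 149.97, 205 and 236 under anti-IL-2 and 326 and 349 under IgG, each in the same batch order. The CD8 gut anti-IL-2 libraries were the lowest group of the 8, and the paired log2 fold change was -0.73 ± 0.12 (adjusted p = 0.000806, edgeR). The smallest paired difference was -0.07, in the CD4 IgG libraries of batch 190306. With neither pairing nor batch term, Klf2 passed in neither cell type (adjusted p = 0.376 in CD4 and 0.0764 in CD8 cells, edgeR), while with 8 groups and a batch term, also unpaired, it passed in both.

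Klf3, a KLF family member that acts mostly as a repressor and is itself a target of KLF factors, had the smallest adjusted p of the 7 genes in both cell types. In CD4 spleen cells it was at 149.9, 150.4 and 225 CPM under IgG and 191, 192 and 199 under anti-IL-2. In CD4 gut cells it was at 98.3 and 138 CPM under IgG and 100.2, 112 and 127 under anti-IL-2. Gut and spleen libraries did not overlap, and the log2 fold change was -0.73 ± 0.07 (adjusted p = 4.17e-06, edgeR). In CD8 spleen cells Klf3 was at 108, 100.05 and 195 CPM under IgG and 132, 131 and 154 under anti-IL-2. In CD8 gut cells it was at 59.6 and 86.6 CPM under IgG and 56.6, 59.5 and 72.7 under anti-IL-2. The tissues again did not overlap, with a log2 fold change of -1.07 ± 0.07 (adjusted p = 2.80e-07, edgeR).

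S1pr1, the receptor through which T cells follow S1P out of tissue, was lower in the gut in 5 of 5 pairs in each cell type. In CD4 spleen cells it was at 439.9, 517 and 527 CPM under IgG and 422, 435 and 535 under anti-IL-2. In CD4 gut cells it was at 311 and 361 CPM under IgG and 217, 216 and 429.6 under anti-IL-2. The gut anti-IL-2 library of batch 190306 reached the lower end of the spleen libraries and the other gut libraries lay below them, with a log2 fold change of -0.71 ± 0.12 (adjusted p = 0.000945, edgeR). In CD8 spleen cells S1pr1 was at 395, 431 and 438 CPM under IgG and 364, 384 and 448 under anti-IL-2. In CD8 gut cells it was at 339.7 and 264 CPM under IgG and 202, 162 and 317 under anti-IL-2. The CD8 libraries of the 2 tissues did not overlap, and the log2 fold change was -0.73 ± 0.12 (adjusted p = 0.000902, edgeR).

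S1pr4, a second S1P receptor found mainly on lymphoid cells, was also lower in the gut in 5 of 5 pairs in each cell type. In CD4 spleen cells it was at 306, 337 and 398 CPM under IgG and 244, 230.2 and 486 under anti-IL-2. In CD4 gut cells it was at 264 and 317 CPM under IgG and 172, 175 and 360.03 under anti-IL-2. The tissues overlapped across batches, but the pairs kept within -0.50 to -0.33, with a log2 fold change of -0.40 ± 0.07 (adjusted p = 0.000904, edgeR). In CD8 spleen cells S1pr4 was at 349, 342 and 457 CPM under IgG and 292, 291 and 503 under anti-IL-2. In CD8 gut cells it was at 275 and 254 CPM under IgG and 169, 153 and 282 under anti-IL-2. Each CD8 gut library lay below each CD8 spleen library, and the log2 fold change was -0.74 ± 0.07 (adjusted p = 1.27e-05, edgeR). With neither pairing nor batch term, S1pr4 did not pass (adjusted p = 0.341 in CD4 and 0.0585 in CD8 cells, edgeR), while with 8 groups and a batch term it passed in both cell types.

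Ccr7 had the largest gut and spleen difference of the 7 genes in both cell types and the largest error. In CD4 spleen cells it was at 27.95, 20.9 and 79.2 CPM under IgG and 85.9, 55.9 and 22.3 under anti-IL-2. In CD4 gut cells it was at 2.93 and 30.8 CPM under IgG and 12.5, 13.1 and 7.05 under anti-IL-2. Levels differed widely between batches within a group and the tissues overlapped, while 5 of 5 pairs were lower in the gut, with a log2 fold change of -2.08 ± 0.28 (adjusted p = 0.000194, edgeR). In CD8 spleen cells Ccr7 was at 7.06, 3.43 and 21.99 CPM under IgG and 21.6, 14.8 and 2.54 under anti-IL-2. In CD8 gut cells it was at 0.751 and 12.5 CPM under IgG and 5.02, 4.28 and 2.64 under anti-IL-2. In CD8 cells 4 of 5 pairs were lower in the gut, the exception being the anti-IL-2 pair of batch 190306 (2.64 against 2.54 CPM), and the log2 fold change was -1.34 ± 0.33 (adjusted p = 0.00793, edgeR). With no replicate block the adjusted p of Ccr7 was 0.0799 in CD4 and 0.266 in CD8 cells, and with 8 groups and a batch term it was 0.0602 and 0.222 (edgeR).

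The adhesion genes went the other way, by smaller steps. Itgb2 in CD4 spleen cells was at 872, 890.2 and 907 CPM under IgG and 866, 836 and 884 under anti-IL-2. In CD4 gut cells it was at 989.96 and 1226 CPM under IgG and 1138, 1189 and 1131 under anti-IL-2. Each CD4 gut library was above each CD4 spleen library, and the log2 fold change was 0.38 ± 0.06 (adjusted p = 0.000199, edgeR). In CD8 spleen cells Itgb2 was at 1036, 1030.2 and 1060.1 CPM under IgG and 1088, 993 and 1024 under anti-IL-2. In CD8 gut cells it was at 997 and 1315 CPM under IgG and 1128, 1113 and 1178 under anti-IL-2. The CD8 tissues overlapped, and the difference of 0.14 ± 0.06 on the log2 scale did not pass (adjusted p = 0.0638, edgeR). Without the CD8 gut IgG library of batch 181212 and its spleen partner it did (adjusted p = 0.0339, edgeR).

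Cd44, which binds hyaluronan and marks activated and memory T cells, was higher in the gut in 5 of 5 pairs in each cell type. In CD4 spleen cells it was at 419, 445 and 354 CPM under IgG and 372, 406 and 383 under anti-IL-2. In CD4 gut cells it was at 537 and 583 CPM under IgG and 485, 479 and 505 under anti-IL-2. The CD4 tissues did not overlap, and the log2 fold change was 0.41 ± 0.07 (adjusted p = 0.000463, edgeR). In CD8 spleen cells Cd44 was at 332, 366 and 272 CPM under IgG and 316, 326 and 292 under anti-IL-2. In CD8 gut cells it was at 443 and 374 CPM under IgG and 373, 348 and 321 under anti-IL-2. The CD8 tissues overlapped, with a log2 fold change of 0.24 ± 0.07 (adjusted p = 0.0128, edgeR). That call was lost without the CD8 gut IgG library of batch 190306 and its partner (adjusted p = 0.0847, edgeR).

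**Figure D2:**
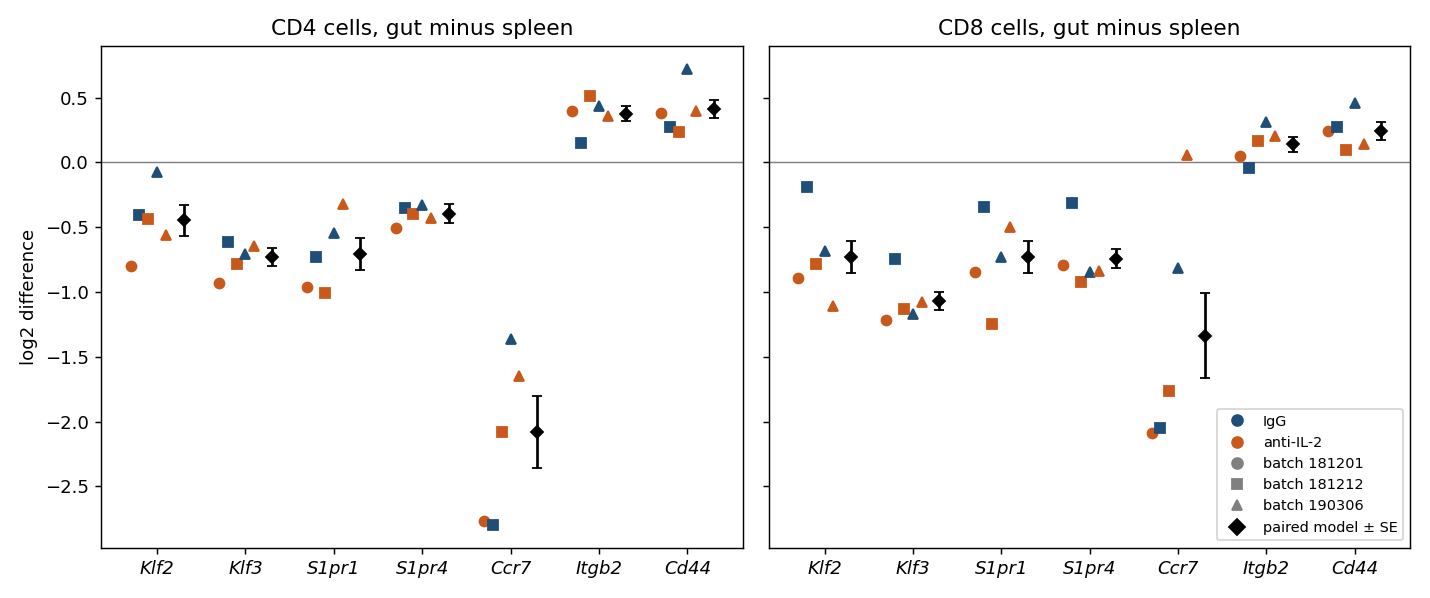
Log2 difference of gut minus spleen for each gene in CD4 cells (left) and CD8 cells (right), with 1 point per pair coloured by treatment and shaped by batch, and diamonds with bars for the paired model's estimate ± SE. In the CD8 panel only the Ccr7 pair of batch 190306 under anti-IL-2, at 0.05, lies above 0 among the genes that fell.

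Whether the gut and spleen difference itself differed between CD4 and CD8 cells was tested in the same model. That model paired gut with spleen but not CD4 with CD8 libraries, whose deviations from group means correlated at r = 0.474 to 0.778. It may therefore miss a difference between the cell types. None of the 7 genes passed, where 2.16% of all genes did. The nearest were Klf3 and S1pr4, whose fall was smaller in CD4 cells by 0.34 ± 0.09 (adjusted p = 0.0840, edgeR) and 0.34 ± 0.10 (adjusted p = 0.111, edgeR) on the log2 scale. Both passed in DESeq2 (adjusted p = 0.0299 and 0.0386) and, in edgeR, without the CD8 gut IgG library of batch 181212 and its partner (adjusted p = 0.02001 and 0.00670). The Itgb2 call in CD4 but not CD8 cells is likewise no shown difference between them (0.24 ± 0.08, adjusted p = 0.148, edgeR).

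Other signals moved with the tissue. The summed level of 14 stress and immediate early genes was 3884 to 9838 CPM in CD4 gut against 1306 to 2645 in CD4 spleen libraries, and 2651 to 7670 against 948 to 1703 in CD8 libraries, with 12 of the 14 genes higher in the gut in each cell type. The summed level of 6 epithelial markers was 17.96 to 97.9 CPM in CD4 gut against 5.86 to 7.76 in spleen, and 44.7 to 94.7 against 8.14 to 11.4 in CD8 cells, with 5 of 6 higher in each. Cdh1 had the highest median of the 6 in the gut, at 15.3 CPM in CD4 and 37.8 in CD8 cells, but its share of the sum differed between libraries. Vil1, a defining gene of gut epithelium, reached at most 16.1 CPM in the gut and Krt8 at most 10.9. The 7 B cell markers summed to 8.39 to 54.0 CPM in CD4 gut and 63.7 to 180 CPM in CD4 spleen libraries, nearly all of it Cd22. Of 8 T cell markers 4 were higher and none lower in CD4 gut cells, and 5 higher and 1 lower in CD8 gut cells. Of 10 macrophage markers 1 was higher and 5 lower in CD4 gut cells and none passed in CD8 cells. Few of the other markers reached the filter: 1 of 3 B cell and 1 of 2 endothelial markers tested were lower in the gut in each cell type, 1 of 2 erythroid markers was lower in CD4 cells, and none of 5 neutrophil markers and 1 dendritic cell marker passed. The part of these signals in the gut and spleen differences of the 7 genes was not tested.

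The other genes of the same pathways were examined in 5 lists. Their median log2 fold changes in CD4 and CD8 gut cells were 0.0061 and 0.06 for the S1P axis, 0.34 and 0.39 for KLF2 regulators and KLF factors, -0.60 and -0.56 for lymphoid homing, 0.14 and 0.17 for LFA-1 partners, and 0.61 and 0.19 for CD44 and residence, beside 0.0097 and -0.0026 over all genes. The counts of these lists stand against 24% of all genes higher and 20.3% lower in CD4 gut cells, and 22.4% and 20.4% in CD8 gut cells. A gene named below for a single cell type ranked high there, which does not show that the cell types differ. In the test of that difference, 0 of 11 S1P axis, 0 of 11 KLF and 0 of 11 residence genes passed. Of lymphoid homing genes 1 of 11 passed, and of LFA-1 partners 3 of 18. Of 14 symbols listed for the S1P axis, 11 were tested. Of these, 3 were higher and 2 lower in CD4 gut cells, and 4 higher and 3 lower in CD8 gut cells. In CD4 cells this is about the share over all genes. Cd69, whose protein binds S1PR1 and removes it from the cell surface, rose by a log2 fold change of 1.95 ± 0.39 in CD4 and 2.44 ± 0.41 in CD8 cells, so that Cd69 and S1pr1 moved in opposite directions. S1pr5, the S1P receptor of natural killer and effector T cells, fell in CD8 gut cells (-2.27 ± 0.42) and S1pr2 rose there (0.56 ± 0.10). Sgpp1, an S1P phosphatase, fell in both (-0.27 ± 0.05 and -0.20 ± 0.05). In CD4 cells Sgpl1, the S1P lyase, fell (-0.19 ± 0.05) and Gnai2, a G protein subunit downstream of these receptors, rose (0.24 ± 0.04).

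Of 11 tested KLF2 regulators and other KLF factors, 6 were higher and none lower in each cell type, so the fall of Klf2 and Klf3 was not shared by the listed family members that passed. Klf10 rose in CD4 cells (1.11 ± 0.13) and Klf7 in CD8 cells (0.64 ± 0.08). Foxo3 rose in both (0.45 ± 0.08 and 0.57 ± 0.08). Foxo1, the factor known to drive Klf2 and Ccr7 transcription, did not pass in either (0.15 ± 0.06, adjusted p = 0.0553, and 0.15 ± 0.06, adjusted p = 0.0621, edgeR).

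Of 11 lymphoid homing genes, 6 were lower and 2 higher in CD4 gut cells, and 7 lower and 2 higher in CD8 gut cells. Tcf7, a factor of naive and memory cells, fell in both (-1.55 ± 0.13 and -1.02 ± 0.13). Cxcr5, the receptor for B cell follicles, fell in CD4 cells (-2.74 ± 0.25), and Cxcr4 in CD8 cells (-0.60 ± 0.08). Selplg, a selectin ligand used at inflamed vessels, rose in both (0.44 ± 0.04 and 0.16 ± 0.04). Gcnt1 in CD4 cells (0.56 ± 0.18) and Gpr183 in CD8 cells (0.31 ± 0.11) rose as well, and without batch 190306 Gcnt1 was at 0.27 (adjusted p = 0.0564, edgeR). The IL-7 receptor gene Il7r was at -0.49 ± 0.21 and -0.56 ± 0.21 and did not pass (adjusted p = 0.0790 and 0.0518, edgeR).

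Of 18 partners and activators of LFA-1, 9 rose and 4 fell in CD4 gut cells, and 7 rose and 6 fell in CD8 gut cells. Itgal, the alpha chain that pairs with Itgb2 to form LFA-1, rose by 0.31 ± 0.06 in CD4 and 0.19 ± 0.06 in CD8 cells, and without batch 190306 the CD8 value was 0.09 (adjusted p = 0.392, edgeR). Itgax, an alternative alpha chain, and Tln1, the talin that activates integrins, rose in CD4 cells (1.27 ± 0.17 and 0.35 ± 0.04). Fermt3 and Icam1 rose in CD8 cells (0.27 ± 0.04 and 0.47 ± 0.08). Icam2, a ligand of LFA-1, fell in both (-0.93 ± 0.08 and -0.90 ± 0.08), as did Rasgrp2, an activator of the RAP1 GTPase upstream of LFA-1 (-0.37 ± 0.07 and -0.81 ± 0.07).

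Of 12 genes of CD44 function and tissue residence 11 were tested, and of these 8 rose and 1 fell in CD4 gut cells, and 6 rose and none fell in CD8 gut cells. Rgs1, which dampens chemokine receptor signalling, rose by 3.63 ± 0.39 and 3.60 ± 0.39. Itgae, the CD103 chain that binds E-cadherin, rose by 3.51 ± 0.52 and 6.20 ± 0.61. Hyal2, a hyaluronidase, was the gene that fell in CD4 cells (-0.35 ± 0.13).

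**Figure D3:**
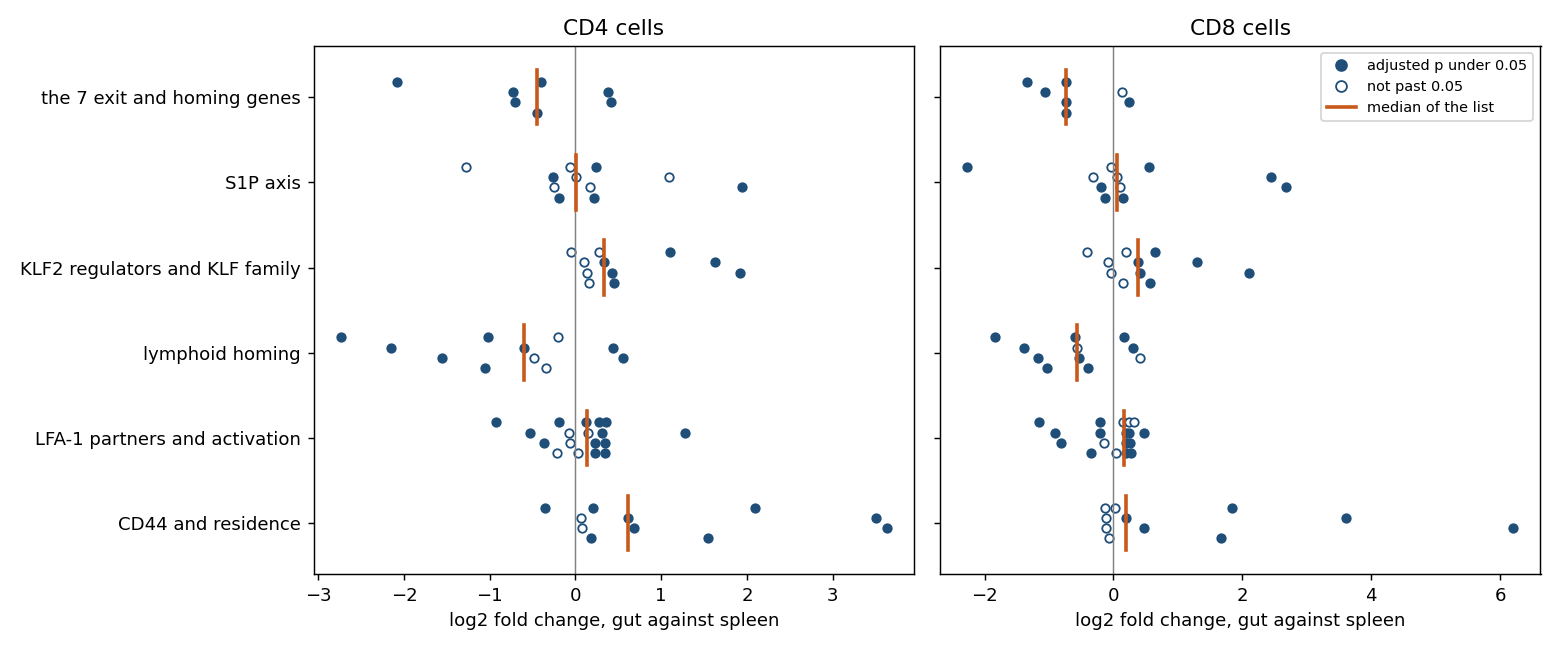
Log2 fold change of gut against spleen for the 7 genes and for each gene of the 5 pathway lists, in CD4 cells (left) and CD8 cells (right); filled points had an adjusted p under 0.05 in edgeR and vertical strokes mark each list's median. The median of the 7 genes is at -0.45 in CD4 and -0.73 in CD8 cells.

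The second comparison set CD4 against CD8 cells of the same tissue, batch and treatment. In the spleen (6 pairs), Ccr7, Klf3, Cd44 and S1pr1 were higher and Itgb2 and S1pr4 lower in CD4 cells, which is 4 of 7 higher and 2 of 7 lower against 32.1% and 31% of all genes. In the gut (5 pairs) Ccr7, Klf3, Cd44, S1pr1 and S1pr4 were higher in CD4 cells and none was lower, against 26.6% and 25.8%. Ccr7 differed most, by 2.14 ± 0.12 in spleen and 1.43 ± 0.17 in gut on the log2 scale, with each of the 11 pairs higher in CD4 cells. Klf3 followed with 0.45 ± 0.04 and 0.79 ± 0.05, and Cd44 with 0.33 ± 0.04 and 0.49 ± 0.05. Itgb2 was lower in CD4 cells of the spleen, at -0.24 ± 0.03 (adjusted p = 1.47e-06, edgeR), and in the gut the difference was -0.01 ± 0.03 (adjusted p = 0.835, edgeR). S1pr4 was lower in CD4 cells of the spleen (-0.17 ± 0.05) and higher in those of the gut (0.17 ± 0.06), and S1pr1 was higher in both (0.22 ± 0.06 and 0.26 ± 0.07). In the test above of whether the tissue difference differed between cell types, S1pr4 and Itgb2 did not pass (adjusted p = 0.111 and 0.148, edgeR). That test did not pair CD4 with CD8 libraries and may miss a change of their CD4 and CD8 difference between the tissues. The change was not tested with that pairing. The pairs of Itgb2 lay between -0.33 and -0.21 in the spleen and between -0.10 and 0.095 in the gut, without overlap. Those of S1pr4 overlapped, at -0.34 to -0.02 in the spleen and -0.06 to 0.35 in the gut. Klf2 did not pass in the spleen (-0.12 ± 0.08, adjusted p = 0.226) or the gut (0.15 ± 0.09, adjusted p = 0.172, edgeR).

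The gut values of S1pr1 and S1pr4 rested on batch 190306, without which they were 0.13 (adjusted p = 0.211) and 0.06 (adjusted p = 0.434, edgeR). The S1pr4 call was also lost without the CD4 gut library of batch 190306 under anti-IL-2 (adjusted p = 0.0923) or IgG (adjusted p = 0.0689, edgeR). Klf2 in the gut passed without the CD4 gut IgG library of batch 181212 (adjusted p = 0.0148, edgeR). With 8 groups and a batch term in place of the pairing, the calls of S1pr1 and S1pr4 in both tissues and of Ccr7 in the gut were lost (adjusted p from 0.192 to 0.449, edgeR), as they were with neither pairing nor batch term (0.232 to 0.691).

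Other signals moved with the cell type. Of 14 stress and immediate early genes 13 were higher and none lower in CD4 cells, in spleen and in gut alike. Of 10 macrophage markers 6 were higher and 1 lower in CD4 cells of the spleen, and of 6 epithelial markers 3 were lower and none higher in CD4 cells of the gut. Their part in the CD4 and CD8 differences of the 7 genes was not tested.

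The third comparison was the study's treatment, anti-IL-2 against IgG. With all 3 batches in the edgeR model, 0 of the 7 genes passed in each of the 4 populations, and 0% of the 12841 genes did. Unadjusted, p was under 0.05 for 282 (spleen CD4), 148 (spleen CD8), 750 (gut CD4) and 953 (gut CD8) genes. With no effect anywhere, a share of 0.05 of the 12841 genes would be expected there. That is more than either spleen count and less than either gut count. DESeq2 called 0, 0, 8 and 18 genes, among them 1 of the 7 in gut CD8 cells. The batches differed in direction. Against batches 181201 and 181212, the treatment difference of batch 190306 was different by edgeR for 3 of the 7 genes in CD4 cells of the spleen (24.2% of all genes), 3 in CD8 cells of the spleen (18.6%), 4 in CD4 cells of the gut (21.4%) and 3 in CD8 cells of the gut (16.7%). Ccr7 and S1pr4 were among them in each population. In that model each anti-IL-2 library of batch 190306 has a term of its own, so the spread comes from the other libraries (8 residual degrees of freedom). Whether the IgG and anti-IL-2 labels of batch 190306 are right is in doubt and was not settled here, and the group means and SDs given over all batches take the labels as they stand. The cause of the reversal was not tested.

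Ccr7 shows the reversal most plainly. Its log2 difference between libraries labelled anti-IL-2 and IgG in spleen CD4 cells was 1.62 and 1.41 in batches 181201 and 181212 and -1.83 in batch 190306. In spleen CD8 cells it was 1.60 and 2.08 against -3.06. In the gut, where batch 181201 has no IgG library, it was 2.13 in batch 181212 against -2.11 in batch 190306 for CD4 cells and 2.36 against -2.20 for CD8 cells. S1pr4 reversed the opposite way, from -0.33 and -0.55 to 0.29 in spleen CD4 cells, from -0.25 and -0.23 to 0.14 in spleen CD8 cells, from -0.60 to 0.18 in gut CD4 cells and from -0.85 to 0.15 in gut CD8 cells. Klf3 in the spleen and S1pr1 in the gut changed sign as well. For Klf3 the log2 difference in batch 190306 was -0.18 in spleen CD4 and -0.34 in spleen CD8 cells, where both other batches were above 0. For S1pr1 it was 0.25 in gut CD4 and 0.26 in gut CD8 cells, against -0.52 and -1.07 in batch 181212. Klf2 did not reverse. It was lower in the library labelled anti-IL-2 in each batch and population, by a log2 difference of -0.44, -0.23 and -0.08 in spleen CD4 cells and -0.30, -0.07 and -0.14 in spleen CD8 cells. In the gut its differences in batches 181212 and 190306 were -0.26 and -0.57 for CD4 cells and -0.67 and -0.56 for CD8 cells.

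Markers of other cells also differed between batch 190306 and the others. In the test of that difference, 6 of 10 macrophage markers were lower in CD4 cells of the spleen, 2 in CD8 cells of the spleen and 4 in each gut population, and none was higher. Of 5 neutrophil markers 2 were higher in spleen CD4 cells and 1 in spleen CD8 cells. The summed neutrophil level was 53.1 and 33.6 CPM in the CD4 and CD8 spleen libraries labelled anti-IL-2 of batch 190306, against 1.18 and 1.02 in those labelled IgG. In CD4 spleen cells the summed B cell level under anti-IL-2 against IgG was 149.9 against 84.2 CPM in batch 181201 and 180.1 against 63.7 in batch 181212, but 79.7 against 147.6 in batch 190306. The summed macrophage level there was 178.7 against 33.6, 28.2 against 13.8 and 26.3 against 143.6 CPM in the same batch order. Both sums thus changed direction in batch 190306, and the part of these markers in the reversal of the 7 genes was not tested.

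**Figure D4:**
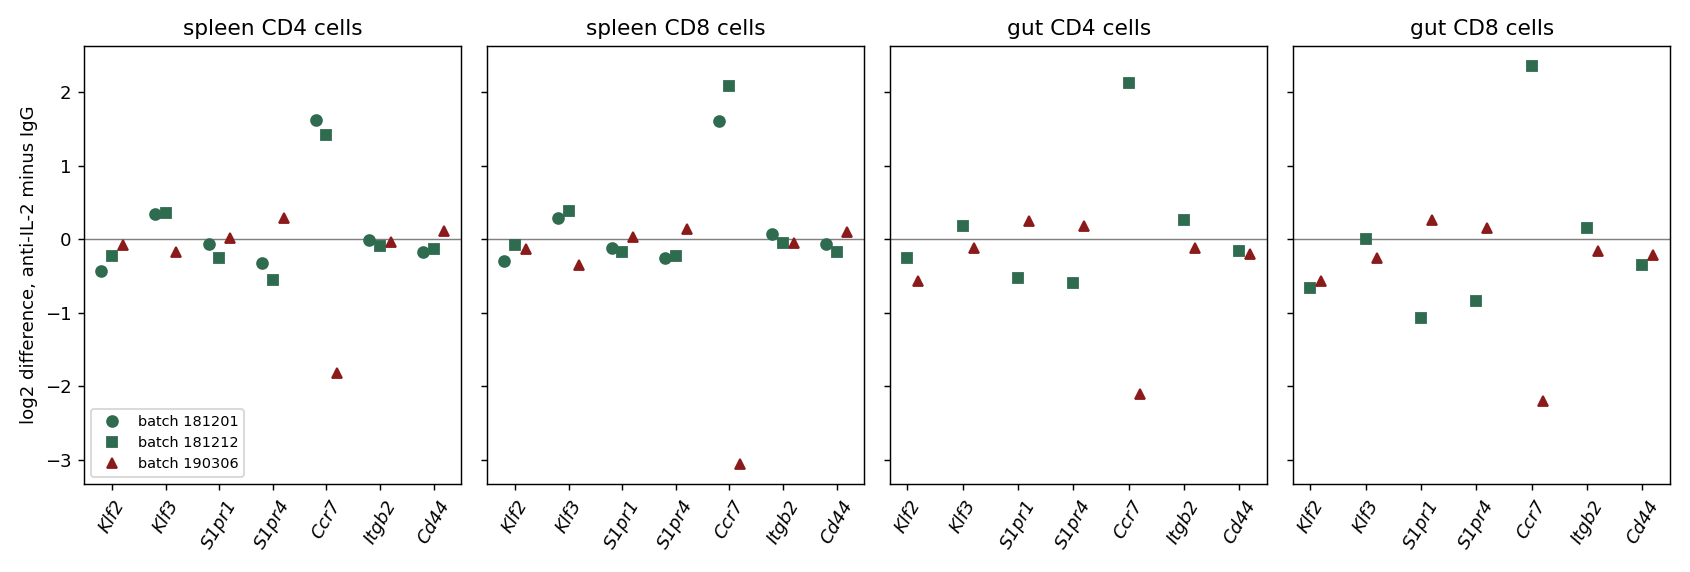
Log2 difference between the libraries labelled anti-IL-2 and IgG for each gene, 1 point per batch, in spleen CD4, spleen CD8, gut CD4 and gut CD8 cells. Batch 190306 (triangles) lies below 0 for Ccr7 where the other batches lie above it, and Klf2 is below 0 in each batch and population.

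The treatment was therefore also fitted in batches 181201 and 181212 alone, a choice made with the reversal known. There Ccr7 was higher under anti-IL-2 in each population, by 1.55 ± 0.16 for spleen CD4 cells, 1.81 ± 0.20 for spleen CD8 cells, 1.91 ± 0.30 for gut CD4 cells and 2.38 ± 0.44 for gut CD8 cells on the log2 scale (adjusted p from 3.26e-05 to 0.00604, edgeR). S1pr4 was lower in each, by -0.41 ± 0.06, -0.24 ± 0.06, -0.61 ± 0.08 and -0.78 ± 0.08 in the same order. Klf3 was higher in both spleen populations, by 0.37 ± 0.07 in CD4 and 0.34 ± 0.07 in CD8 cells. S1pr1 was lower in the gut, by -0.50 ± 0.12 in CD4 and -0.88 ± 0.12 in CD8 cells. In gut CD8 cells Klf2 (-0.71 ± 0.16) and Cd44 (-0.27 ± 0.08) were lower as well. Itgb2 passed in no population in edgeR. Markers of other cells moved with the treatment in these batches as well. Of 6 epithelial markers 4 were higher and none lower in gut CD8 cells, and 3 were higher and 1 lower in gut CD4 cells. Of 5 B cell markers tested, 1 was higher in spleen CD4 and 2 in gut CD4 cells, and 1 was higher and 1 lower in spleen CD8 cells. Of 10 macrophage markers 1 was higher in each spleen population. The summed erythroid level reached 30.5 CPM in the CD4 spleen anti-IL-2 library of batch 181201, against 1.63 in its IgG partner. Their part in these treatment differences was not tested.

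In the spleen, 2 of the 7 were thus higher and 1 lower in CD4 cells (9.8% and 10.3% of all genes) and likewise 2 and 1 in CD8 cells (6.06% and 6.08%). In the gut, 1 was higher and 2 lower in CD4 cells (6.04% and 5.68%), and 1 higher and 4 lower in CD8 cells (5.51% and 5.22%). Each gut IgG group here was the single library of batch 181212, taken to vary like the other groups. Several calls depended on single libraries. In gut CD4 cells S1pr1 was lost without the anti-IL-2 library of batch 181201 (adjusted p = 0.0775) or 181212 (0.127, edgeR), and Klf2 was gained without the latter (0.0136). In gut CD8 cells Klf2 was lost without the anti-IL-2 library of batch 181201 (adjusted p = 0.0911) or 181212 (0.0796), and Cd44 without that of 181212 (0.261, at a log2 fold change of -0.17, edgeR). In spleen CD8 cells S1pr4 was lost without any of the 4 libraries (adjusted p from 0.111 to 0.171), and Klf3 without the anti-IL-2 library of batch 181201 (0.0640) or the IgG library of 181212 (0.0769, edgeR). DESeq2 also called Klf2 lower in spleen CD4 (adjusted p = 0.0340) and gut CD4 cells (0.0272), and Itgb2 higher in gut CD4 cells (0.0420). Whether the treatment difference of a gene differed between tissues was not tested.

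Over the 22 libraries, which share batch, tissue and cell type, the log2 CPM of Klf2 and S1pr4 correlated at Pearson r = 0.884, S1pr1 and S1pr4 at 0.864, and Klf3 and Ccr7 at 0.777. Klf2 and Ccr7 correlated at 0.211 and S1pr4 and Ccr7 at 0.095, and S1pr1 and Itgb2 at -0.644. Among 9313 expressed genes, those most like Klf2 were Bin2 (r = 0.925), Cdc25b (0.861) and Il17ra (0.859), and those most like S1pr4 were Add1 (0.951), Bin2 (0.926) and Cdc25b (0.925). Bin2 and Cdc25b were thus near the top for both. For S1pr1 they were Prkcq (0.959), Cstf2t (0.943) and Ssh3 (0.942), and for Klf3 Tmprss13 (0.964), Tnfrsf22 (0.959) and Psen2 (0.927). For Ccr7 they were Nsg2 (0.958), Tarbp1 (0.953) and Tcf7 (0.942), the last being among the lymphoid homing genes that fell in the gut. For Itgb2 they were Chst11 (0.955), Isy1 (0.928) and Tnfrsf1b (0.912), and for Cd44 Cdkn1a (0.922), Lilrb4a (0.921) and Trim24 (0.919).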

How the data were processed

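The authors deposited a table of read counts per gene symbol for the 22 libraries, whole numbers that are not normalized. The submitters' processing notes name TopHat2, HTSeq 0.9.1 and the build mm10; the annotation, strand setting and filters are not given in the sources used here. The kit, per the labels' protocols, was for stranded mRNA. Samples were grouped by source name and characteristics, since the description of 5 CD8 IgG samples names the other tissue.

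Models were fitted with edgeR 4.0.16 in R 4.3.3 (TMM scaling, filterByExpr, robust quasi-likelihood test), with Benjamini-Hochberg adjustment over all genes of a contrast and a threshold of 0.05. CPM uses TMM-scaled library sizes, and log2 CPM a prior count of 2. Log2 fold changes are given ± standard error (SE). Gut and spleen were compared in 20 libraries (12821 genes, 8 residual degrees of freedom) with each pair of the same cell type, batch and treatment as a block, which leaves out the 2 spleen IgG libraries of batch 181201. CD4 and CD8 cells were compared in 22 libraries (9 residual degrees of freedom), paired likewise. Treatment was fitted with batch as a term over all libraries, in batches 181201 and 181212 (13073 genes, 5 residual degrees of freedom), and with an own effect for batch 190306. The pairing comes from the batch labels. Deviations from group means correlated at r = 0.278 to 0.588 in the 10 gut and spleen pairs and at 0.474 to 0.778 in the 11 CD4 and CD8 pairs. The scripts were tested on simulated data.

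The 7 genes, the 5 pathway lists, the 9 marker lists and the alternatives were chosen with earlier results of these data known. Named from the lists were Cd69, Foxo1, Itgal, Il7r and, in each gut and spleen contrast, the 2 genes per list and direction with the smallest p among those past 0.05; some genes the rule names are not reported here. The 3 genes most alike were taken by Pearson correlation among tested genes whose mean log2 CPM was 2 or more, clone names left out. Alternatives were DESeq2 1.42.0, other size factors, no filter, neither pairing nor batch term, a batch term in place of the pairing, leaving out batch 190306 and leaving out each library. Without molecular identifiers, a read need not be a separate molecule, so counts give the counting error only.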

Additional observations from a re-analysis of the deposited data

Results flagged for a closer look

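In spleen cells, the Itgb2 difference of CD4 minus CD8 was -0.33 on the log2 scale in the anti-IL-2 pair of batch 181201, set apart from the other 5 spleen pairs, which lay between -0.25 and -0.21. In CD8 cells, the S1pr4 difference of gut minus spleen was -0.31 in the IgG pair of batch 181212, apart from the other 4 pairs, which lay between -0.92 and -0.79. Both were picked out because the gap to the nearest pair was large against the range of all pairs. Chance picks out about 1 in 20 such groups of pairs. The causes were not tested.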

How the results depend on the processing

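With RLE size factors or no filter on low counts, each of the 7 genes kept its direction and its side of the threshold for gut against spleen, CD4 against CD8 and the treatment in batches 181201 and 181212; for the all-batch treatment and the difference of batch 190306, direction by gene was not compared. With RLE factors the all-batch treatment model called 1 gene in gut CD4 cells. No replicate block (no pairing or batch term) gave 2706 genes and 4 of the 7 for gut against spleen in CD4 cells (paired: 5683 and 7), 2605 and 3 in CD8 cells (paired: 5477 and 6), and 11 for the difference between cell types (paired: 277). It gave 4308 genes for CD4 against CD8 in spleen (paired: 8097) and 2497 with 2 of the 7 in gut (paired: 6727 and 5). For the treatment in batches 181201 and 181212 it gave 872 genes in gut CD4 cells (with batch: 1533) and 2 of the 7 in gut CD8 cells (with batch: 5). With 8 groups and batch, the counts were 42 for the difference between cell types, and 4091 genes and 2 of the 7 for CD4 against CD8 in gut.

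Without batch 190306, gut against spleen gave 3752 genes in CD4, 3235 in CD8 and 15 for their difference, CD4 against CD8 in gut gave 3 of the 7, and 3 values that had not passed changed sign: Klf2 (-0.053) and Itgb2 (0.041) for CD4 against CD8 in gut, and S1pr1 (-0.10) for the difference between cell types. DESeq2 gave 8 and 18 genes for the all-batch treatment in gut CD4 and CD8 cells with 1 of the 7 in the latter, 946 genes and 5 of the 7 in gut CD4, 848 in gut CD8 and 1036 in spleen CD8 cells for the 2 earlier batches, and 550 genes and 2 of the 7 for the difference between cell types. The causes of these shifts were not tested, beyond the smaller number of samples in the settings that leave libraries out.

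Leaving out each library in turn gave 112 to 489 genes and 0 to 2 of the 7 for the difference between cell types, and 0 to 2 genes for the all-batch treatment in gut CD4 cells. For the treatment in the 2 earlier batches it gave 635 to 857 genes in gut CD4, 849 to 1030 genes and 3 to 4 of the 7 in gut CD8, 1562 to 1882 genes in spleen CD4, and 669 to 954 genes and 1 to 2 of the 7 in spleen CD8 cells. Values near 0 that had not passed changed sign: Klf3 in gut CD8 (-0.063 to 0.0075) and Itgb2 in spleen CD8 cells (-0.054 to 0.087) for the treatment, Itgb2 for CD4 against CD8 in gut (-0.033 to 0.020), and S1pr1 for the difference between cell types (-0.10 to 0.12). Depth limits Ccr7 most, with 14 reads in its lowest library.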
